A study of Homo sapiens with 18 samples.

Results

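Genes that mark blood cells, liver, muscle, nerve tissue, pancreatic islets and sperm were followed in RNA of FTC-133, a human cell line from a follicular thyroid carcinoma. They were chosen by name, as 38 genes of tissues other than the thyroid, and every probe set of the HG-U133 Plus 2.0 array with 1 of these genes as its single symbol was taken. This gave 36 of the 38 genes, out of 19775 genes on the array, measured by 72 of 54675 probe sets. The erythroid group held 2 genes, the lymphoid 6, the myeloid 3, the liver 9, the muscle 6, the nervous system 6, the pancreas 2 and the sperm 2. CD68, a lysosomal protein of macrophages, occurred only in a probe set with several symbols, which was left out with 3 others, and TNNT2, the troponin T of the heart, was not analysed here.

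The study asked how the intensities on GeneChip arrays depend on the number of stringent washing cycles, and on a second staining. Biotin-labelled cRNA from untreated FTC-133 cells, grown under standard conditions, was applied to 3 arrays as aliquots of 1 hybridization mix. All 18 scans therefore carry the same RNA of 1 cell line, and every p-value below measures technical spread between scans and arrays. In the first series array A was stained before any stringent cycle and scanned after 0, 2, 7 and 17 of them (scans A1 to A4). Staining of array B came after 2 stringent cycles, and its scans B1 to B4 were taken after 0, 2, 7 and 17 additional ones. Array C went through the standard protocol of 6 stringent cycles, then staining, and gave a single scan (C1). All 3 arrays were then stained again in 3 rounds and taken through the same steps a second time, which gave scans A5 to A8, B5 to B8 and C2. The second series followed on the first, so that total cycles reached 34 on array A, 38 on array B and 12 on array C.

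In the body each of these genes is read mainly in its own tissue. Liver cells secrete albumin, apolipoproteins, fibrinogen chains and transferrin into the blood, muscle fibres build the sarcomere from myosin, troponin and actinin, and neurons fill their axons with neurofilaments and release transmitters from vesicles at the synapse. Lymphocytes carry receptor complexes such as CD3 and CD79, and sperm pack their DNA with protamines. Follicular thyroid cells are marked instead by the transcription factors PAX8 and NKX2-1.

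ALB lay below the median of all probe sets on scan C1, and GAD1 was among the brightest marker genes. TF held the only probe set that passed a test. The stretches upstream of these 3 genes are shown as examples. Each is the 250 bases before a transcription start in RefSeq (GRCh38.p14), read 5′ to 3′ on the plus strand, and capitals mark the dinucleotide CG. The sequences lie at chr4:73404037-73404286 for ALB, chr2:170816637-170816886 for GAD1 and chr3:133746143-133746392 for TF, which has another annotated start.
ALB: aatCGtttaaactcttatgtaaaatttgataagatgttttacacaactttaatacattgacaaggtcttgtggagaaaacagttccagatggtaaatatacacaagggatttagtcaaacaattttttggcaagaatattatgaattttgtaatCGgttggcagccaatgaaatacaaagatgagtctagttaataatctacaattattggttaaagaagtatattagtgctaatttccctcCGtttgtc
GAD1: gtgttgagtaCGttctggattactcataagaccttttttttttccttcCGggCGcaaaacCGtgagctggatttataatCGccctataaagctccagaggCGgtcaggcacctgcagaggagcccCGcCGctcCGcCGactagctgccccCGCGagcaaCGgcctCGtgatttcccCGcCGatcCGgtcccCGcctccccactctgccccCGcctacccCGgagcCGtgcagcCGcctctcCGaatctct
TF: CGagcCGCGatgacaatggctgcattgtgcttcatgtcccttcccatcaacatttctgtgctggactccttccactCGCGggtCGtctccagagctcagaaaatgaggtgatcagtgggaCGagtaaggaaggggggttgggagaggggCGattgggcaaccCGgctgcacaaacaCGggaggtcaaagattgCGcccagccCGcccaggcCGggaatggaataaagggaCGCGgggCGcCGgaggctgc

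The ALB window held 3 CG, and 22.9% of the 35116 windows of all genes held fewer. The TF window shown held 17, with fewer in 61.0% of windows, and the one at the other start of TF held 34, with fewer in 93.2%. The GAD1 window held 23, with fewer in 74.2%. Such windows were found for 25 of the 38 genes, 37 windows in all, and their median was 5 CG against 11 over all windows, with 28 of the 37 below 11. The letters TATAAA, searched on both strands in the last 50 bases before the start, occurred in 3 of the 37 windows (GCG, INS and PRM2) and in 3.47% of all windows. These are counts of letters, and nothing on the activity of a promoter was measured.

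Most of the marker genes lay in the lower part of the signals, with an exception in the nervous system group. The values are MAS5 signals, which combine the perfect match and mismatch probes of a probe set into 1 linear value scaled per scan. Since probes differ in how well they bind, a percentile among all probe sets describes the place of a signal and not an amount of RNA, and fewer cells with a transcript and less of it per cell cannot be told apart. On scan C1 the median of the 72 probe sets was 21.9, against 51.0 over all 54675. Of the 72, 20 lay above that median, 3 above the 80th percentile and 1 above the 90th, which stood at 822, while 10 lay below the 10th percentile. The count above the median was between 17 and 29 on the 18 scans, and that above the 90th percentile was 0 or 1. Signals of dim probe sets are not a proof of transcripts, and detection calls were not used here.

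As a check of the label, genes of the cell line's own type were read on the same scan. PAX8 (121_at) had 757 and NKX2-1 (211024_s_at) 766, at percentiles of 89.4 and 89.5, and thyroglobulin (TG), the hormone precursor of the thyroid, had 40.7. Of the 9 measured thyroid genes 4 lay above the median of all probe sets and 0 above the 90th percentile, and TSHR, the receptor for thyrotropin, FOXE1, DUOX2 and DIO1 lay below the median with 23.4 to 41.6. The label thus rests on part of its markers. Of 8 epithelial and cell line genes 6 lay above the median and 3 above the 90th percentile. Among them the mesenchymal filament vimentin (VIM) had 18362 and keratin 18 (KRT18) 1408, whereas the adhesion protein E-cadherin (CDH1) had 32.3 and keratin 19 (KRT19) 4.59. Represented by the brightest probe set of each gene on scan C1, the median was 148.2 for the 6 genes of the nervous system, 39.2 for liver, 36.6 for lymphoid, 27.4 for sperm, 23.9 for muscle, 23.6 for pancreas, 23.3 for erythroid and 17.4 for myeloid genes. The 3 probe sets above the 80th percentile belonged to NEFL and MAP2.

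**Figure D1:**
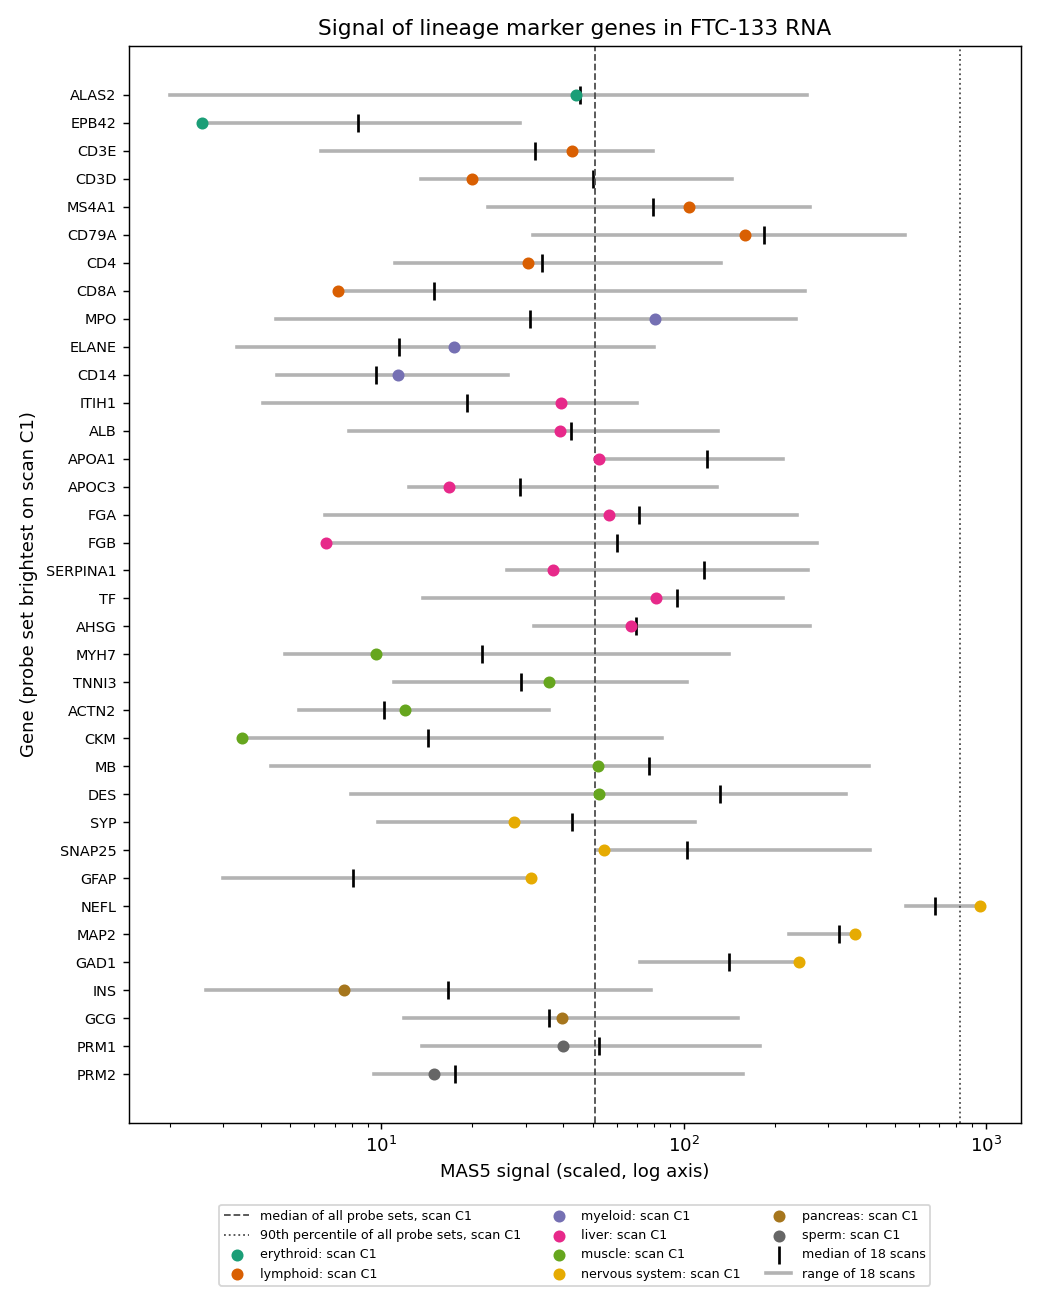
Signal of each of the 36 marker genes, taken from its probe set brightest on scan C1, on a log axis of MAS5 signal. Coloured points are scan C1 by tissue group, ticks the median and grey bars the range over 18 scans, and the vertical lines the median (51.0) and the 90th percentile (822) of all probe sets on C1. NEFL alone passes the 90th percentile, and MAP2 has the shortest bar.

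Among the markers, the genes of the nervous system held the brightest and the steadiest probe sets. Steadiness was not compared at matched signal. Outside the markers, KRT8 (keratin 8) ranged from 440 to 759 and NKX2-1 from 533 to 926. KRT18 ranged more widely, from 634 to 1509. For NEFL, the light chain of the neurofilament, probe set 221805_at had 545, 665, 604 and 567 on scans A1 to A4, 871, 694, 760 and 643 on B1 to B4, and 957 on C1. In the second series it had 635, 637, 616 and 598 on array A, 769, 781, 726 and 721 on array B, and 691 on C2. It stayed between the percentiles 87.5 and 91.2 on all 18 scans. A second probe set of the gene, 221916_at, ranged from 418 to 877 with a median of 584, whereas the third, 221801_x_at, ranged from 29.7 to 169.

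MAP2, which binds the microtubules of dendrites, held the probe set with the smallest spread of all 72. This probe set, 225540_at, ranged from 224 to 378 with a median of 326, and the standard deviation over the 18 scans was 0.21 on the log2 scale, as for NEFL. The other probe set of MAP2, 210015_s_at, was dimmer and more variable, from 54.7 to 187 with 72.2 on C1 and a standard deviation of 0.51. The median of this standard deviation was 1.06 over the 72 probe sets and 0.94 over all probe sets. Neither set was matched to the signal of NEFL and MAP2. GAD1, the enzyme that makes the transmitter GABA, ranged from 71.8 on scan A1 to 241.6 on C1 in 206669_at, with a median of 141.4. Its other probe sets ranged from 22.4 to 161 (206670_s_at) and from 9.88 to 81.0 (205278_at).

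The other genes of this group had wider ranges. SNAP25, a protein of the nerve terminal membrane that takes part in the fusion of synaptic vesicles with it, ranged from 51.4 to 415 in 202507_s_at. Its probe set 1556629_a_at ranged from 1.55 to 295, a ratio of 190, the largest among the 72. SYP, a protein of the vesicle membrane, ranged from 9.78 to 109 with a median of 42.6. GFAP, the filament of astrocytes, stayed between 3.00 and 31.3 in 203540_at and between 4.37 and 32.6 in the other probe sets. The glial marker thus lay at or below percentile 38.2 in all of its probe sets on every scan.

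Of the 6 lymphoid genes the representatives of 2, CD79A and MS4A1 of B cells, lay above the median of all probe sets on scan C1. A second probe set of MS4A1, 217418_x_at, also lay above it with 83.3. The other probe sets of both genes lay below it, with 17.8 in 205049_s_at of CD79A, and 31.1 in 228592_at and 5.04 in 228599_at of MS4A1. CD79A, a signalling chain of the B cell receptor, ranged from 31.7 on B4 to 541 on A2 in 1555779_a_at, with a median of 185 and 159.6 on C1. MS4A1, which encodes CD20, ranged from 22.5 to 261 in 210356_x_at with a median of 79.2. The chains of the T cell receptor complex had medians of 49.97 for CD3D (13.5 to 144) and 32.3 for CD3E (6.32 to 79.5). The co-receptor CD4 had a median of 33.9 (11.1 to 133) in 203547_at and one of 9.99 in 216424_at.

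CD8A, the other co-receptor of T cells, differed between the arrays, and on array A also between the series. Its probe set 205758_at had 235, 252, 249 and 222 on scans A1 to A4 and 47.5, 94.2, 38.3 and 50.04 on A5 to A8. On array B it had 12.4, 13.7, 7.01 and 12.1 in the first and 11.1, 10.7, 16.1 and 11.5 in the second series, and array C gave 7.17 and 7.84. All 8 scans of array A lay above all scans of arrays B and C.

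Liver genes were spread around and below the median of all probe sets. Of 25 probe sets of 9 genes, the representatives of 4 genes lay above that median on scan C1. These were TF, the iron carrier transferrin, with 81.1 in 214063_s_at, AHSG, the plasma protein fetuin A, with 67.0, FGA, the alpha chain of fibrinogen, with 56.5, and APOA1, the main protein of high-density lipoprotein, with 52.4. Each representative was picked as the brightest on this same scan. Of the other probe sets of these 4 genes, 203400_s_at of TF had 74.8. The rest lay below the median, from 1.35 in 220109_at of TF to 39.99 in 217073_x_at of APOA1. Over the 18 scans AHSG ranged from 31.99 to 261 in 210929_s_at with a median of 69.4, and APOA1 from 50.8 to 214 in 204450_x_at with a median of 119.9.

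Albumin (ALB), the most abundant protein of plasma, had 39.0 on scan C1 in 214837_at and ranged from 7.81 to 130 with a median of 42.4. Its probe set 211298_s_at had 260 on scan A1, 13.7 on A2 and 7.04 on A3, and 4.88 and 4.84 on array C. The 4 probe sets of ALB thus gave different pictures of 1 gene, with a ratio of 12.7 between brightest and dimmest on C1. FGB, the beta chain of fibrinogen, ranged from 6.55 to 276 in 216238_s_at and from 6.07 to 75.5 in 204988_at. SERPINA1, an inhibitor of neutrophil elastase, ranged from 26.0 to 257 in 211429_s_at. Its other probe sets were dimmer, from 2.65 to 26.2 (202833_s_at), 2.98 to 34.7 (211428_at) and 5.11 to 75.5 (230318_at). APOC3, an apolipoprotein of triglyceride-rich particles, ranged from 12.3 to 129 in 205820_s_at and reached 164 in 231587_at. ITIH1, a heavy chain of an inhibitor of trypsin, ranged from 4.06 to 70.4.

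Muscle genes ranged widely over the scans, often with array A on top. DES, the intermediate filament desmin, had 281, 170, 344 and 281 on scans A1 to A4 and 229, 288, 341 and 288 on A5 to A8 in 202222_s_at. On array B it had 124, 136, 113 and 77.1 in the first series and 38.9, 20.7, 7.94 and 9.20 in the second, and array C gave 52.7 and 127.6. Every scan of array A was above every other scan. MB, the oxygen store myoglobin, ranged from 4.30 on C2 to 409 on A1, and MYH7, a slow myosin heavy chain, from 4.80 on B4 to 142 on A7. CKM, the creatine kinase of muscle, had 3.46 on C1 and ranged to 85.0, TNNI3, the inhibitory troponin of the heart, ranged from 10.996 to 103, and ACTN2, an actinin of the Z disc, from 5.34 to 35.8 in 203861_s_at. Another probe set of ACTN2, 203864_s_at, ranged from 8.99 to 307.

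The remaining groups are small. ALAS2, which starts haem synthesis in red cell precursors, ranged from 1.99 on B8 to 257 on A1 in 244205_at, and EPB42, a protein of the red cell membrane skeleton, from 2.56 to 28.8. Of the myeloid genes MPO, the peroxidase of neutrophil granules, ranged from 4.48 to 235 in 203948_s_at, ELANE, the neutrophil elastase, from 3.33 to 79.7, and CD14, a receptor for bacterial lipopolysaccharide, from 4.51 to 26.3. CD14 and EPB42 stayed below the median of all probe sets on every scan, at percentiles of at most 21.9 and 23.7. The islet hormones insulin (INS) and glucagon (GCG) ranged from 2.64 to 78.2 and from 11.9 to 151, and the protamines PRM1 and PRM2 from 13.6 to 179 and from 9.47 to 157.

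Different probe sets of a gene often disagreed. Of the 36 genes 20 had several probe sets, and the median ratio of the brightest to the dimmest on scan C1 was 5.78. It reached 59.9 for TF, with 81.1 in 214063_s_at and 1.35 in 220109_at. For 2 of the 20 genes, AHSG and MAP2, the probe set brightest on C1 was the brightest on all 18 scans. Among the 72 probe sets, 28 have names ending in _s_at and 6 in _x_at, marks of the array's design for probes shared by several transcripts or prone to cross-hybridization.

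The order of the 72 probe sets was also less alike between scans than that of all probe sets. Spearman's correlation between scans C1 and C2 of the same array was 0.61 over the 72 and 0.86 over all 54675 probe sets. Between arrays B and C (B1 and C1) it was 0.65 and 0.86, and between arrays A and B (A4 and B4) 0.36 and 0.75. These are correlations across probe sets that share scans, scaling and RNA, and are given as a description. The dim range of signals that most of the 72 occupy was not matched in the set of all probe sets.

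**Figure D2:**
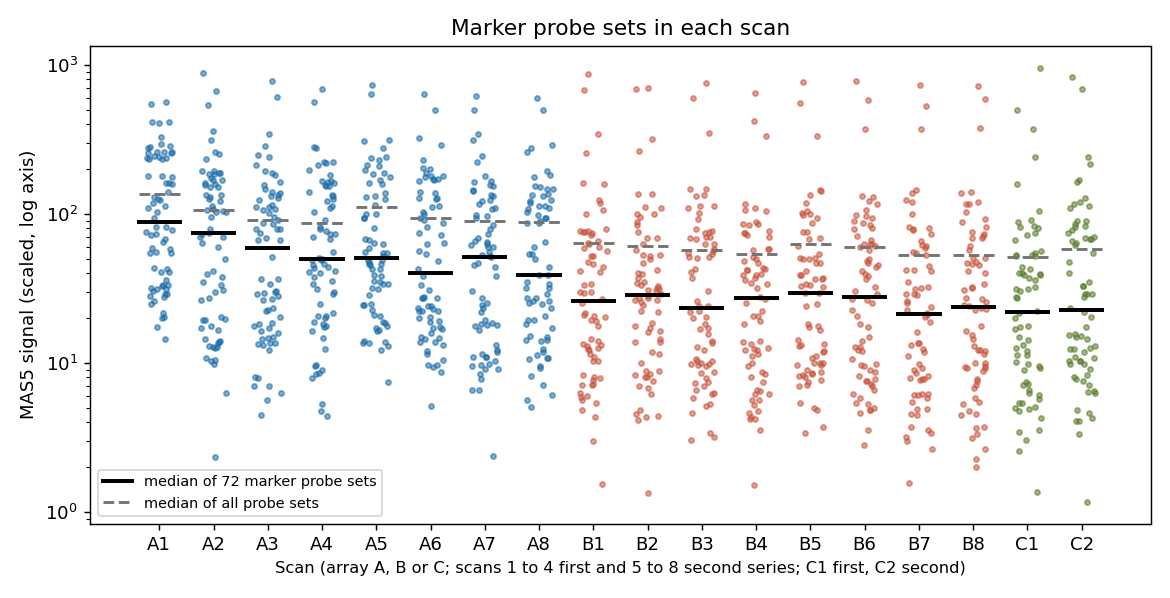
MAS5 signals (log axis) of the 72 marker probe sets on each of the 18 scans, 1 point per probe set, with their median as a solid and the median of all 54675 probe sets as a dashed bar. The medians of the markers lie below those of all probe sets on every scan, at 88.2 and 136.2 on A1 and at 21.9 and 51.0 on C1.

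Many marker genes differed between arrays A and B. In the first series 25 of the 72 probe sets, with 14 of the 36 gene representatives among them, were higher on all 4 scans of array A than on all 4 of array B, where 23.2% of all probe sets were, and 0 were higher on array B, against 5.85% of all. In the second series 30 were higher on array A (33% of all probe sets) and 4 on array B (11.2% of all), and over 8 against 8 scans 16 were higher on array A (10.4% of all) and 0 on array B (2.35% of all). This comparison was chosen after the data were seen. The 4 probe sets higher on array B in the second series were 221805_at of NEFL, 225540_at of MAP2 and 2 of GAD1. After centring each scan on its median, or after quantile normalization, 13 probe sets were higher on array A in the first series, against 8.83% and 10.7% of all, and 7 on array B under both, against 24.8% and 11.7% of all.

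By tissue, the 25 were 8 of 25 probe sets of liver, 6 of 10 of muscle, 4 of 15 of the nervous system, 3 of 11 lymphoid, 3 of 4 myeloid and 1 of 3 erythroid. The ratio of array A to array B was taken between geometric means of the 4 first-series scans of each. Its largest values were 21.8 for CD8A, 20.3 for ALAS2 (244205_at), 15.4 for SNAP25 (202508_s_at), 12.6 for FGA (205650_s_at) and 11.4 for MPO (203949_at). The other probe sets of these genes had 1.87 for ALAS2, 3.68 and 9.71 for SNAP25, 1.17 and 0.63 for FGA and 0.69 for MPO. Over the 72 probe sets the median ratio was 2.14, against 1.45 over all, and 1.93 against 1.37 in the second series. Dim probe sets of any kind were often higher on array A. When all probe sets were divided into 10 equal bins by scan C1, the share higher on array A was 29.4% to 31.0% in the 6 dimmest bins and 1.01% in the brightest. Arrays A and B differ in the cycles before staining as well as in the chip, and the 2 cannot be told apart. The ratios and shares here are of signals as scaled by the authors, and the counts given above changed with median centring.

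Scan A1, taken before any stringent cycle, held the highest of the 18 signals for 29 of the 72 probe sets (40.3%, against 30.8% of all probe sets). From A1 to A2, over the first 2 stringent cycles, the median ratio was 0.62 for the markers and 0.80 for all probe sets, and 53 of the 72 were lower, where 62.7% of all were. From A3 to A4 the median ratio was 1.03 against 0.96. From A1 to A4 it was 0.62 against 0.65 and from B1 to B4 0.89 against 0.83. Each scan was scaled to nearly the same trimmed mean. The ratios are thus relative to the other signals of a scan and not amounts washed off.

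Washing was tested as the change from 0 to 17 additional cycles on arrays A and B, with the array as a block. In the first series limma called 0 of the 72 probe sets higher and 0 lower at an adjusted p of 0.05 (0% of all probe sets in either direction). At an unadjusted p under 0.05, 0 were higher (3.5% of all) and 10 lower (13.9% of all). The median change was -0.48 on the log2 scale, and -0.45 over all probe sets, so that markers and all probe sets differed by -0.03. These changes are relative as well. In the same fit 7 bright reference genes outside the markers, among them ACTB, had a median change of 1.34. On array A the markers' median was -0.68, on array B -0.16. Only 3 residual degrees of freedom stood behind this test, and all adjusted p-values lay between 0.196 and 0.971. Lower on the last than on the first scan of both arrays were 31 probe sets (44.5% of all), higher on both were 7 (14.7% of all), and 34 went opposite ways on the 2 arrays.

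With so few degrees of freedom the absence of a call does not show that a marker kept its level. On simulated data with 200 of 54675 probe sets changed, this fit recovered no change of the sizes seen here. The simulated noise also held the real differences between scans of an array, so this recovery does not measure the power on these data. Of the 8 brightest markers NEFL (221805_at) stood at -0.19 with a standard error of 0.30 (limma, adjusted p = 0.755) and MAP2 (225540_at) at -0.31 with a standard error of 0.29 (adjusted p = 0.598). GAD1 (206669_at) stood at 0.35, TF (214063_s_at) at 0.38, MS4A1 and AHSG both at -1.34 and CD79A at -1.63, with limma's adjusted p between 0.231 and 0.842. Other probe sets had -1.48 and -0.98 for GAD1, -0.09, -1.09 and -3.00 for TF, and -0.59, 0.90 and 0.87 for MS4A1. That of AHSG had 0.38 and that of CD79A -0.53. The last of the 8, MPO (203948_s_at), stood at -1.82 (limma, adjusted p = 0.577). The lowest change among the representatives was that of CD3D, -2.38 with a standard error of 0.59 (limma, adjusted p = 0.207). Its signal was 109, 73.2, 26.3 and 17.6 on A1 to A4 and 58.9, 53.3, 62.8 and 13.5 on B1 to B4, and it was lowest on the last scan of both arrays. MPO and FGA (-1.69) came next, and ELANE (0.68), MYH7 (0.64) and CD3E (0.60) had the highest values among the representatives. With 1 scan left out FGA lay between -2.50 and -0.88 and CD3D between -2.89 and -1.87.

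In the second series limma again called 0 of the 72 higher and 0 lower (0% of all in either direction). At an unadjusted p under 0.05, 1 was higher (2.55% of all) and 9 lower (11.6% of all). The median change was -0.23, against -0.24 over all probe sets, with -0.56 on array A and -0.07 on array B. Lower on both arrays were 28 probe sets (43.8% of all) and higher on both 5 (16.4% of all). Among the gene representatives ALAS2 stood at -2.76, MPO at -1.70 and AHSG at -1.57. At the other end APOA1 stood at 0.82, MYH7 at 0.67 and CD3D at 0.54. For these 6 limma's adjusted p lay between 0.329 and 0.734. With 1 scan left out ALAS2 lay between -4.65 and -0.87. For NEFL and MAP2 the values were -0.09 and 0.01, with standard errors of 0.17 and 0.19.

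**Figure D3:**
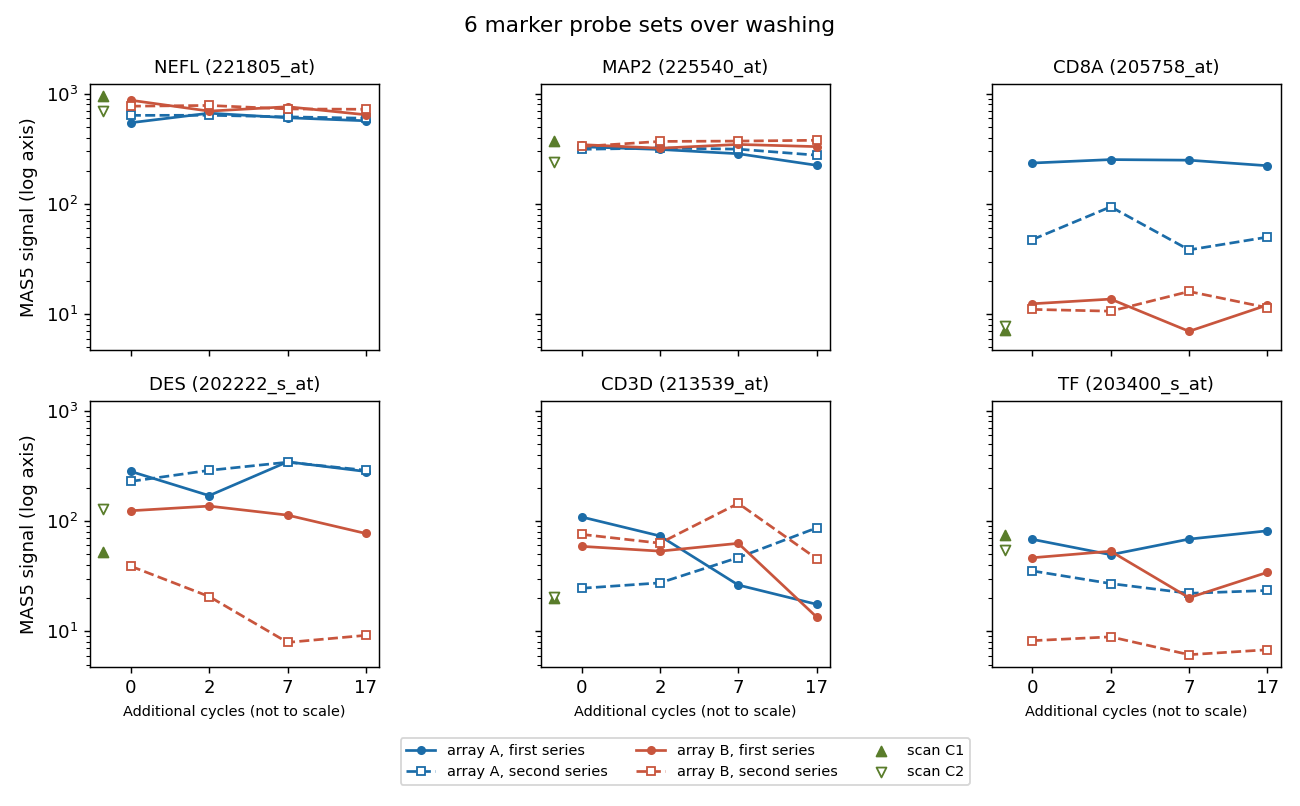
MAS5 signal (log axis) of 6 probe sets over the washing steps of arrays A and B, filled symbols and solid lines for the first and open symbols and dashed lines for the second series, with scans C1 and C2 as triangles. NEFL and MAP2 keep to a narrow band, CD8A and DES separate array A from array B, CD3D reaches 17.6 on A4 and 13.5 on B4, and TF is lower in the second series at every step.

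The difference between the series, tested as an interaction over 16 scans of arrays A and B, gave 0 calls in either direction among the 72 (limma, 0% of all probe sets), with adjusted p between 0.625 and 0.997. At an unadjusted p under 0.05, 2 were higher (4.91% of all) and 0 lower (2.58% of all). The median was 0.03, against 0.12 over all. Among the gene representatives CD3D had the highest value, 2.92 with a standard error of 0.99 (limma, adjusted p = 0.625), followed by CD79A with 1.70 and MS4A1 with 1.66. The lowest among them were TF (214063_s_at) with -1.82, ALAS2 with -1.66 and TNNI3 with -1.09. Among the other probe sets were 220109_at of TF with 2.99, 1565228_s_at of ALB with 2.87 and 203862_s_at of ACTN2 with -1.72. The other probe set of CD79A had -0.81, and those of MS4A1 had 0.07, -0.88 and -0.60. With 1 scan left out TF (214063_s_at) lay between -3.24 and -0.40 and CD79A between 0.53 and 2.87. For NEFL the value was 0.10 and for MAP2 0.31, with standard errors of 0.30 and 0.31.

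Re-labelling was tested by pairing each second-series scan with the first-series scan of the same array and step, which gave 9 pairs. The second scan of a pair had also been washed for more cycles in total, so that staining and washing cannot be told apart here. Of the 72 probe sets, limma called 0 higher (0.294% of all) and 1 lower (0.541% of all). At an unadjusted p under 0.05, 2 were higher (8.34% of all) and 14 lower (11.3% of all). The median change was -0.16, against -0.02 over all probe sets. By array the markers' median was -0.31 on A, -0.06 on B and 0.29 on C. Each scan was scaled to nearly the same trimmed mean, so all changes on re-labelling are relative to the other signals of a scan. Per the study's text the second staining raised the intensity level markedly, and a rise shared by a whole scan does not show here.

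The probe set called lower was 203400_s_at of TF, which fell by 1.65 on the log2 scale with a standard error of 0.24 (limma, adjusted p = 0.0298), or 3.13-fold. The 9 pairs are repeated scans of 3 hybridizations, and with the array as the unit the probe set did not pass (limma, adjusted p = 0.777), nor without the block of array and step (adjusted p = 0.121). Its signal was 68.2, 49.5, 68.5 and 81.5 on A1 to A4 and 35.3, 27.1, 22.1 and 23.5 on A5 to A8. On array B it was 46.4, 53.2, 20.2 and 34.3 in the first and 8.23, 8.92, 6.14 and 6.81 in the second series, and on array C 74.8 and 54.8. The second scan was lower in 9 of 9 pairs, which held for 2.2% of all probe sets, and 0 of the 72 were higher in all 9, against 1.72% of all. For this probe set the series overlapped on neither array A nor array B. The call did not hold without array A (limma, adjusted p = 0.106) or without array B (adjusted p = 0.181), nor without any of 7 of the 9 pairs (adjusted p = 0.0525 to 0.0666). It held without the pair of array C (limma, adjusted p = 0.0203) and without A1 and A5 (adjusted p = 0.0376).

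The other probe sets of transferrin gave no call. The values were 0.15 for 214063_s_at, 0.05 for 214064_at and 1.43 for 220109_at, with standard errors of 0.39, 0.25 and 0.59 and limma's adjusted p of 0.868, 0.929 and 0.221. A difference between probe sets of TF was not tested. ITIH1 came nearest to a call otherwise, with -1.53 and a standard error of 0.34 (limma, adjusted p = 0.0652). It had 29.1, 16.6, 18.2 and 33.9 on A1 to A4 and 17.8, 20.1, 9.72 and 15.1 on A5 to A8, 63.2, 33.3, 70.4 and 57.9 on B1 to B4 and 14.3, 4.85, 31.2 and 15.5 on B5 to B8, and 39.2 and 4.06 on array C. Its second scan was lower in 8 of 9 pairs, all but that of A2 and A6.

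**Figure D4:**
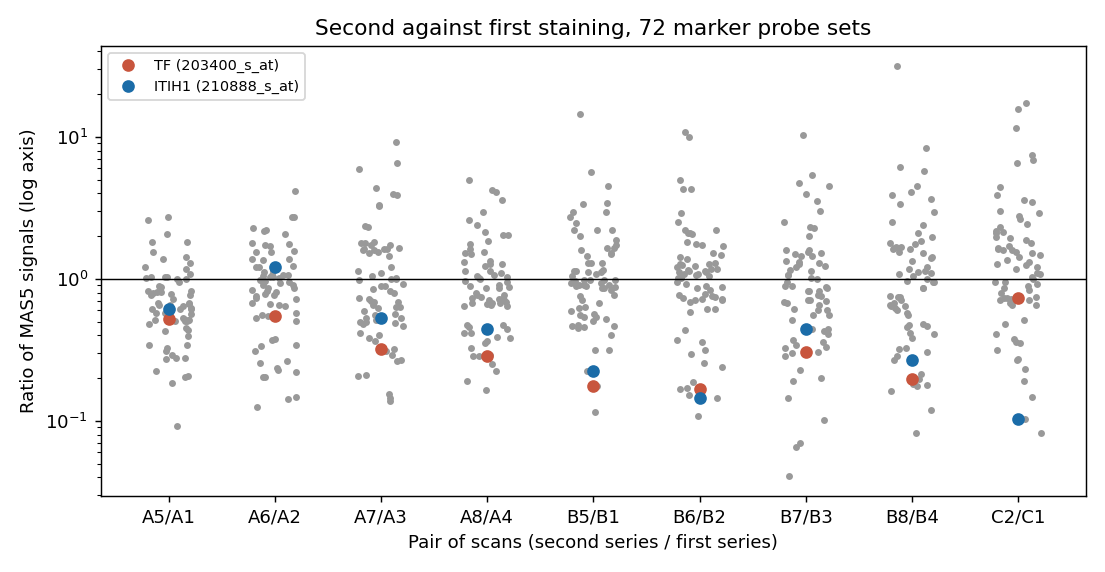
Ratio of the second-series to the first-series MAS5 signal (log axis) for 72 probe sets in each of 9 pairs of scans, 1 grey point per probe set, with the line at a ratio of 1. TF (203400_s_at) lies below the line in 9 of 9 pairs, between 0.168 and 0.733, and ITIH1 in 8 of 9.

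The other markers did not pass limma's threshold. Among the gene representatives MPO stood at -1.78 (limma, adjusted p = 0.116) and DES at -1.06 (adjusted p = 0.318). SERPINA1 stood at 0.60, CD3D at 0.35 and MYH7 at 0.33 (limma, adjusted p = 0.328 to 0.692). Of the other probe sets 217073_x_at of APOA1 stood at 1.10 and 204988_at of FGB at -1.45 (limma, adjusted p = 0.0777 and 0.0976). The other probe set of DES, 216947_at, stood at 0.74. NEFL (221805_at) stood at -0.01 with a standard error of 0.11 and MAP2 (225540_at) at 0.03 with one of 0.12. GAD1 (206669_at) stood at 0.23, CD79A at -0.21, MS4A1 at -0.39 and AHSG at -0.29. ACTB, a bright reference gene outside the markers, fell by 1.02 with a standard error of 0.15 (limma, adjusted p = 0.0304). The 7 measured bright reference genes all lay below the median change of all probe sets, with a median of -0.39, and ACTB was the 1 called. Per the study's text the scanner reached its upper limit for some probes of the second series, and the part of this in the change of ACTB was not tested.

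Other genes of the same tissues, taken from lists that do not contain the 38, were mostly dim as well. Of 111 such genes 101 were measured, limma called 0 of them higher or lower in the 4 comparisons, and 32 lay above the median of all probe sets on scan C1. The 2 above the 90th percentile were SYT1, a calcium sensor of synaptic vesicles, with 1901 and ACTC1, the actin of the heart, with 1303. On scans A1 to A4 SYT1 had 1134, 1335, 1511 and 1627, and ACTC1 1146, 1489, 1346 and 1419. The 14 measured genes of the nervous system had a median of 46.4 and 18 of muscle one of 20.7, so that the bright genes were single members of their lists. The next brightest were MBP, a myelin protein, with 170.5 and TNNT3, a troponin T of fast muscle, with 144.1.

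In the remaining lists no gene passed the 90th percentile of scan C1. CPS1, the first enzyme of the urea cycle, had 170.6 and TAT, which breaks down tyrosine in liver, 109.0. The erythropoietin receptor EPOR had 189.2 and beta globin (HBB) 107.0. The lymphoid CD2 of T cells and BLK of B cells had 58.3 and 55.8, the myeloid CSF1R and CTSG 71.2 and 52.0, the pancreatic PDX1 and CELA3A 80.6 and 56.0, and ODF2 and LDHC of sperm 168.1 and 108.2. The highest percentile among them on scan C1 was 74.2, that of EPOR.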

How the data were processed

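Signals of 54675 probe sets in 18 scans of 3 arrays were read from the deposited values. The authors had converted the intensities to MAS5 signals, on a linear scale, and scaled each scan: the mean after trimming 2% at either end was 250.019 to 250.056. The MAS5 version is not given in the sources used here. No 2 scans were identical, and 0 values lay at or below 0. The signals carry no counts, so that the number of arrays limits the precision. Probe sets were named through the annotation of the array. All 72 gene identifiers were found in RefSeq (GRCh38.p14), which changed 0 symbols. The members and lists were chosen with earlier results of these data known.

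Log2 signals, without filter or offset, were fitted with limma 3.58.1 (R 4.3.3, files read with version 1.17.8 of data.table) over all probe sets, with Benjamini-Hochberg adjustment to 0.05. Washing (17 against 0 additional cycles) and the interaction had the array as a block, and re-labelling the pair of array and step. Scans of 1 array deviated together from the step means (r = 0.345 to 0.769), as repeated measurements of 1 hybridization. The fits were tested on simulated data. Named were members past the threshold, the 8 brightest member genes on C1, the 3 with the highest and the 3 with the lowest change relative to all probe sets, the 2 brightest genes of each other list and reference genes. A gene was represented by its probe set brightest on C1. Medians and ratios were computed in Python 3.11.15 (numpy 2.4.6, pandas 2.3.3, scipy 1.17.1) and plotted with matplotlib 3.10.9. Alternatives were median centring, quantile normalization, an offset of 16, the brighter 27337 probe sets (21 of the 72), no replicate block, robust moderation with a variance trend, the array as the unit, and leaving out scans, pairs or arrays.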

Additional observations from a re-analysis of the deposited data

How the results depend on the processing

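Washing in both series and their difference gave 0 calls under every alternative, which says nothing on stability. On simulated data the main fits for washing recovered no change of the sizes seen among markers, and that for the difference few or none. Robust moderation with a variance trend recovered 18% of simulated log2 changes of 2 and 31% of those of 4 in the first series. In the second series these shares were 5% and 35%, and in either series 0% of changes of 1 were recovered. For re-labelling, limma's 1 marker probe set called lower became 2 with an offset of 16, which added ITIH1 (-0.84, adjusted p = 0.0435), and 2 with robust moderation and a variance trend (ITIH1 adjusted p = 0.0476). It became 0 among the brighter probe sets, which do not hold it, and 0 with the array as the unit, where TF (203400_s_at) stood at -1.35 (adjusted p = 0.777). Without the replicate block of array and step it was 0 as well, with TF at -1.65 (adjusted p = 0.121), and the fits without block changed no other call. Leaving out pairs or arrays gave 0 to 2 called lower and 0 to 1 called higher, with TF between -1.91 and -1.14. The median difference between the series relative to all probe sets was -0.09, 0.0898 among brighter probe sets and -0.22 to 0.14 with a scan left out. Markers relative to all probe sets stood at -0.15 to 0.10 (washing, first series), -0.28 to 0.20 (second series) and -0.17 to -0.00163 (re-labelling) with scans or pairs left out. The count of 25 higher on array A was 13 after centring or quantile normalization and 25 to 31 with a scan left out. The median percentile of the 36 genes on C1 was 43.3, and 29.8 with the mean of all probe sets of a gene.

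Changes that turned their sign, none of them called, did so with 1 array or scan left out. In re-labelling without array B, DES stood at 0.35 (range -2.00 to 0.35), SERPINA1 at -0.0918 (to 1.35) and CD3D at -0.0798 (to 0.72). In washing of the first series MPO stood at 0.42 without A1 (from -4.06) and MYH7 at -0.58 without A4 (to 1.86), and in the second series CD3D at -0.66 without A8 (to 1.75). In the difference between the series ALAS2 stood at 0.23 without B8 (from -3.55) and TNNI3 at 0.31 without B1 (from -2.49). The cause was not tested.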
